A study of Mus musculus with 24 samples.

Results

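The miR-22 hairpin was followed here through both of its mature products, miR-22-3p and miR-22-5p (mmu-mir-22-3p and mmu-mir-22-5p), which were taken by name from the count tables and are 2 of the 1073 mature miRNA names with reads. Small RNA had been sequenced from exosome-enriched fractions (EEFs, the small-vesicle pellets of dissociated tissue) of the hippocampus of male C57BL/6 mice (C57BL/6OlaHsd in the study's methods), 6 to 9 weeks old. Status epilepticus, a prolonged seizure, had been induced by 0.3 μg kainic acid (KA) in 0.2 μl injected into the right basolateral amygdala, and controls received PBS by the same route. The treatment protocol describes midazolam, an anticonvulsant, without naming a group that was left out, and a perfusion with PBS before the tissue was taken. EEFs were prepared at 24 h or 2 weeks by ultracentrifugation (UC, 5 hippocampi pooled per sample) or with the ExoQuick precipitation kit (4 hippocampi pooled), and were treated with RNase A before RNA extraction. The 8 groups were UC control 24h, UC KA 24h, UC control 2w, UC KA 2w and the same 4 prepared with the kit, with 3 libraries in each. Each library is thus a pool of tissue and carries no value for a single mouse, and extraction method and library set cannot be told apart.

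A miRNA hairpin is cut by Dicer into a short duplex, and an Argonaute protein keeps one strand, the guide, while the other is usually lost. The guide finds its target mRNAs mainly through bases 2 to 8, the seed. miR-22 is a conserved vertebrate miRNA that is abundant in brain and heart, and its 3p arm is the usual guide. miR-22 is known as a repressor of the P2X7 receptor, an ATP-gated channel tied to neuroinflammation. The sequences of both products are shown because the seeds and the ends of these molecules carry the comparisons that follow. They were taken from RefSeq on GRCm38.p6, with the seed in capitals:
miR-22-3p: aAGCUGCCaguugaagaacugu
miR-22-5p: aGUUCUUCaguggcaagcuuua
Among the 1679 mature mouse miRNA names of the RefSeq table, each of these seeds belonged to 1 name, that of the arm itself. Of the 1073 counted names 910 are in that table, and the seeds of the others were not searched.

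The hairpin is shown next with both arms in capitals, so that their place on the stem and the base that follows each arm can be read:
Mir22: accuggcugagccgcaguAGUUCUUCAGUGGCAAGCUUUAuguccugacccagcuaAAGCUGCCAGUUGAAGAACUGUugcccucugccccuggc
The hairpin has 95 bases and lies on the plus strand at chr11:75463716-75463810. The 5p arm fills bases 19 to 40 (chr11:75463734-75463755) and the 3p arm bases 57 to 78 (chr11:75463772-75463793), and each is 22 bases long. In the GENCODE M21 annotation, the hairpin lies inside exon 2 of Mir22hg, a non-coding host gene, in both of its listed transcripts. The hairpin also lies inside exon 2 of Tlcd2-203, a transcript of Tlcd2. This is a protein-coding gene on the same strand that overlaps Mir22hg and spans the hairpin. The hairpin is thus exonic in its host RNA rather than intronic.

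The 24 libraries held 85436 to 676726 reads, with 85436 to 169639 in UC libraries and 154884 to 676726 in kit libraries. The smallest kit library was Kit control 24h replicate 2 and the largest Kit KA 2w replicate 2, and these also stood at the ends of the miR-22-3p range described below. Neuronal marker miRNAs (6 of 6 listed found) summed to 30637 to 44443 CPM (counts scaled to a common library total) with UC and 47961 to 80409 CPM with the kit, and liver-specific miR-122-5p was at 0 to 4.72 CPM. Oligodendrocyte markers (3 of 3) summed to 6137 to 10956 CPM with UC and 1760 to 2255 CPM with the kit, endothelial markers (2 of 2) to 218 to 609 and 2101 to 3242 CPM, and erythrocyte markers (3 of 3) to 0 to 11.3 and 0 to 184 CPM. Markers of microglia and leukocytes (5 of 5) summed to 1757 to 5397 and 677 to 7625 CPM, and those of the choroid plexus (5 of 5) to 1208 to 4090 and 1946 to 6297 CPM. The part of these differences between methods in the miR-22 values was not tested.

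miR-22-3p was among the most abundant miRNAs of every library. It gave 635799 of 5371420 reads, and its share of a library was 11.5% ± 2.41 (SD, n = 24 libraries). By read count it had rank 3 in all 12 UC libraries, below miR-127-3p and miR-181a-5p, the other most abundant miRNAs. With the kit its rank was between 1 and 4. miR-181a-5p exceeded it in 23 of 24 libraries, and miR-127-3p in 12 of 12 UC libraries but in 6 of 12 kit libraries. Counts per miRNA are of molecules of nearly equal length, but ligation and amplification differ between sequences, so these ranks are of reads. In material of this kind, fewer vesicles that carry a miRNA and less of it per vesicle cannot be told apart.

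In UC control 24h libraries, miR-22-3p made up 10.3, 11.3 and 14.4% of the reads. In UC KA 24h libraries it made up 12.6, 13.7 and 13.5%, which lay inside the control range. UC control 2w libraries had 10.8, 14.7 and 12.1%, and UC KA 2w libraries 8.84, 13.3 and 10.8%. The 4 UC groups thus overlapped one another, and their means lay between 10.98% ± 2.21 (SD, n = 3, UC KA 2w) and 13.3% ± 0.599 (SD, n = 3, UC KA 24h). Kit control 24h libraries had 9.71, 5.53 and 9.06%, which include the lowest value of the series. Kit KA 24h libraries had 12.9, 11.9 and 10.5%, all above the 3 controls of that time. Kit control 2w libraries had 12.96, 9.91 and 8.69%, and Kit KA 2w libraries 10.5, 17.0 and 11.2%. At 2 weeks the kit groups overlapped, and the highest share of the series came from Kit KA 2w replicate 2.

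**Figure D1:**
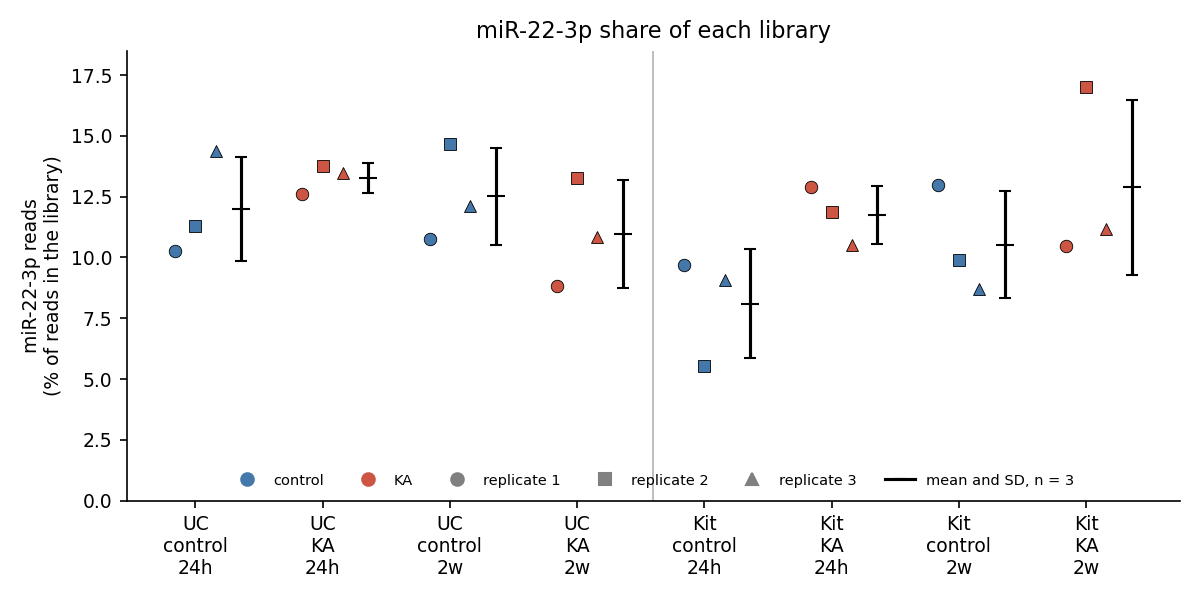
miR-22-3p reads as a percentage of all miRNA reads in each of the 24 libraries, by group, with controls in blue and KA in red, symbols for the replicate number, and bars for the mean and SD of 3 libraries. The 3 Kit KA 24h libraries (10.5 to 12.9%) sit above the 3 Kit control 24h libraries (5.53 to 9.71%), while the groups of the other 3 pairs overlap.

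Whether KA changed the abundance of miR-22 was tested with edgeR's quasi-likelihood test, Benjamini-Hochberg adjusted over all miRNAs of a method, and neither arm passed an adjusted p-value of 0.05 at either time or with either method. With UC, 2 of 420 miRNAs tested (0.476%) passed in the 24 h comparison and 4 (0.952%) in the 2-week comparison, where 0 passed (edgeR) without UC control 2w replicate 3 or UC KA 2w replicate 3, and 33 and 15 then had an unadjusted p-value under 0.05. With the kit, 0 of 520 (0.0%) passed at either time by edgeR, and 24 (4.62%) at 24 h and 14 (2.69%) at 2 weeks had an unadjusted p-value under 0.05. In a fit blocked on the replicate number, 2 passed with the kit at 2 weeks, neither of them an arm of miR-22. For miR-22-3p with UC, the log2 fold change of KA over control was 0.06 ± 0.26 (SE, adjusted p = 1.00, edgeR) at 24 h, with a 95% interval of -0.46 to 0.57. At 2 weeks with UC it was -0.11 ± 0.26 (adjusted p = 0.968, edgeR), with an interval of -0.63 to 0.40. Changes in either direction that lie inside these intervals remain compatible with the UC libraries.

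With the kit at 24 h, the estimated ratio of KA to control was 1.58 for miR-22-3p, a log2 fold change of 0.66 ± 0.29 (SE). The unadjusted p-value was 0.0321 and the adjusted one 0.838 (edgeR), with an interval of 0.06 to 1.25, so the difference did not survive correction for the 520 miRNAs tested. Of these miRNAs, 25 (4.81%) had all KA libraries above all controls by share of library, as miR-22-3p did. Depth moved with this difference, since Kit KA 24h libraries held 273380 to 389402 reads and their controls 154884 to 290175, and its part in the result was not tested. The log2 fold change fell to 0.44 (adjusted p = 0.998, edgeR) without Kit control 24h replicate 2, the smallest kit library, and to 0.20 (adjusted p = 0.887) with miR-92b-3p and miR-25-3p as the reference of the scaling. At 2 weeks with the kit, it was 0.30 ± 0.29 (SE, adjusted p = 0.998, edgeR; interval -0.29 to 0.89).

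The ratio of miR-22-3p to another abundant miRNA of the same library does not depend on library scaling. Per read of miR-181a-5p, Kit control 24h libraries held 0.571, 0.264 and 0.545 reads of miR-22-3p. Kit KA 24h libraries, the same as above, held 0.969, 0.757 and 0.593, without overlap. Per read of miR-127-3p, the controls held 0.791, 0.4999 and 0.760 and the KA libraries 1.03, 1.13 and 0.910. With UC at 24 h, KA libraries held 0.725, 0.534 and 0.540 reads of miR-22-3p per read of miR-127-3p, against 0.317, 0.400 and 0.464 in the controls. The libraries overlapped relative to miR-181a-5p, where UC KA 24h libraries held 0.621, 0.849 and 0.780 and UC control 24h libraries 0.614, 0.735 and 0.829. For miR-127-3p itself, the log2 fold change of KA over control with UC at 24 h was -0.50 ± 0.26 (SE, adjusted p = 1.00, edgeR). The UC separation was thus seen against miR-127-3p and not against miR-181a-5p. By share of library with UC at 24 h, 28 of 420 miRNAs (6.67%) had all KA libraries above all controls, and miR-22-3p did not. How many miRNAs separate by a ratio to miR-127-3p or miR-181a-5p was not counted, so nothing particular to miR-22-3p is read from these separations.

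Whether the KA difference changed between 24 h and 2 weeks was tested as an interaction within each method. For miR-22-3p, the difference at 2 weeks minus that at 24 h was -0.17 ± 0.36 with UC (SE, adjusted p = 0.990, edgeR) and -0.36 ± 0.40 with the kit (adjusted p = 0.987). In this comparison 2 of 420 miRNAs (0.476%) passed with UC and 0 of 520 (0.0%) with the kit by edgeR, where 17 (3.27%) had an unadjusted p-value under 0.05. Whether the KA difference of miR-22-3p itself differed between UC and kit was not tested.

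For time alone, no difference of miR-22-3p passed adjustment. With UC, the mean of both 2-week groups minus that of both 24 h groups was -0.06 ± 0.18 on the log2 scale (SE, adjusted p = 0.925, edgeR), where 2 of 420 miRNAs (0.476%) passed. With the kit it was 0.38 ± 0.20 (unadjusted p = 0.0746, adjusted p = 0.884, edgeR), where 0 of 520 (0.0%) passed and 27 (5.19%) had an unadjusted p-value under 0.05. The interval of the kit difference ran from -0.04 to 0.80.

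Most miRNAs differed between the extraction methods, whereas the difference of miR-22-3p did not pass the test. Of 397 miRNAs tested over all 24 libraries, 263 (66.2%) differed between kit and UC at an adjusted p-value under 0.05. The share of miR-22-3p was 12.2% ± 1.80 (SD, n = 12) with UC, from 8.84 to 14.7%, and 10.8% ± 2.80 (SD, n = 12) with the kit, from 5.53 to 17.0%, so that the ranges overlapped widely. The log2 fold change of kit over UC was -0.24 ± 0.14 (SE, unadjusted p = 0.0961, adjusted p = 0.125, edgeR), with an interval of -0.53 to 0.04. Among its comparators, miR-127-3p fell by 1.22 (adjusted p = 4.44e-10, edgeR) and miR-181a-5p had a log2 fold change of -0.16 (adjusted p = 0.203). The miR-22-3p difference depended on the scaling, since it was -0.65 (adjusted p = 0.000135) with library totals that leave out the top 3 miRNAs and -0.71 (adjusted p = 0.00145) with miR-92b-3p and miR-25-3p as the reference. In these settings the median of all tested miRNAs stood at -0.41 and -0.45, against -0.02 in the reported fit. The adjusted p of miR-22-3p was also between 0.0145 and 0.0472 (edgeR) without any single one of 5 libraries, UC KA 2w replicates 1 and 3, UC control 2w replicate 3, Kit control 2w replicate 1 and Kit KA 2w replicate 2.

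**Figure D2:**
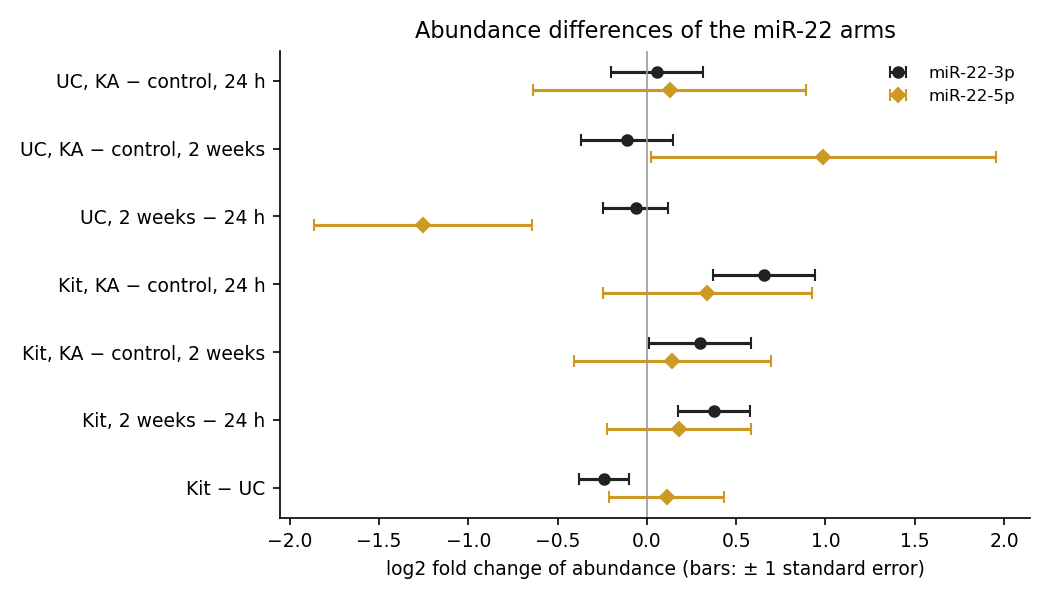
log2 fold changes of miR-22-3p (black circles) and miR-22-5p (yellow diamonds) in 7 comparisons, from edgeR fits over 12 libraries of a method or, for Kit − UC, all 24, with bars of 1 standard error in each direction. miR-22-3p lies within 0.66 of zero throughout, and the errors of miR-22-5p, which rests on 1 to 19 reads per library, are wider.

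Within the kit libraries, the share of miR-22-3p moved with library total. Over the 12 kit libraries, Pearson's r between the share and log2 total reads was 0.845 (permutation p = 0.00166, adjusted over the UC and kit relations 0.00332), and Spearman's rho was 0.650 (permutation p = 0.0257, adjusted 0.0515). Without the 2 libraries farthest from the median total, Kit KA 2w replicate 2 and Kit control 24h replicate 2, r was 0.382, so the relation rests on them. The coefficients take KA and control libraries together. The kit KA libraries had both more reads than the kit controls (means 364016 and 271347) and a higher share (means 12.3 and 9.31%). A relation with depth and a difference between these groups cannot be told apart here. Over the 12 UC libraries, r was -0.0474 (permutation p = 0.885) and rho 0.133 (permutation p = 0.684), and r was 0.0850 without UC control 2w replicate 3 and UC KA 24h replicate 3.

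**Figure D3:**
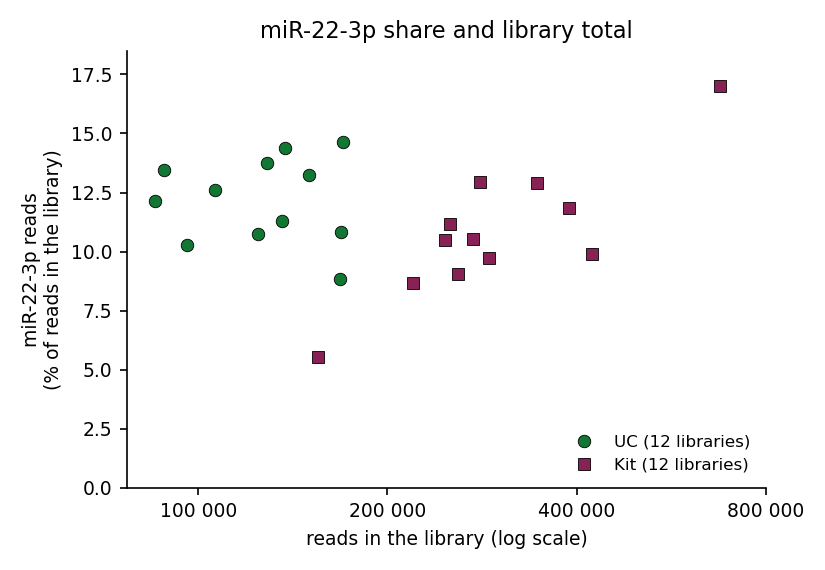
miR-22-3p reads as a percentage of the library against the library's total reads on a log axis, for 12 UC libraries (green circles) and 12 kit libraries (purple squares). The kit libraries with the fewest (154884) and the most reads (676726) have the lowest and highest shares, 5.53 and 17.0%.

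The 5p arm of the same hairpin was close to the limit of detection. It gave 117 reads in all, and every library held at least 1. UC control 24h libraries had 3, 3 and 4 reads, UC KA 24h libraries 2, 3 and 5, UC control 2w libraries 1, 1 and 1, and UC KA 2w libraries 5, 2 and 1. Kit control 24h libraries had 4, 3 and 7, Kit KA 24h libraries 12, 9 and 3, Kit control 2w libraries 7, 5 and 7, and Kit KA 2w libraries 4, 19 and 6. In 11 of 24 libraries it was at or below 3 reads, the floor used here.

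As CPM, miR-22-5p was at 27.5 ± 4.82 (SD, n = 3) in UC control 24h libraries and 8.54 ± 2.94 in UC control 2w libraries, the highest and lowest means of the control groups. UC KA 24h and UC KA 2w libraries had 32.9 ± 20.7 and 16.3 ± 12.2 CPM, and the 4 kit groups had means of 20.1 to 22.9 CPM. With UC, the log2 fold change of miR-22-5p at 2 weeks over 24 h was -1.25 ± 0.61 (SE, unadjusted p = 0.0459, adjusted p = 0.410, edgeR), and 47 of 420 miRNAs (11.2%) had an unadjusted p-value under 0.05 in that comparison. With the kit the same difference was 0.18 ± 0.40 (adjusted p = 0.970, edgeR). The log2 fold changes of KA over control were 0.13 ± 0.77 (SE) and 0.99 ± 0.96 with UC at 24 h and 2 weeks, and 0.34 ± 0.59 and 0.14 ± 0.55 with the kit, with adjusted p-values of 0.808 to 1.00 (edgeR). Their intervals reached from -0.95 to 2.93 for UC at 2 weeks, so that changes of several fold lay inside it. Between kit and UC the difference was 0.11 ± 0.32 (adjusted p = 0.781, edgeR).

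The 2 arms were present in very unequal numbers. Pooled over the libraries, there were 5434 reads of miR-22-3p for each read of miR-22-5p, and the 5p arm was 0.0184% of the reads of the hairpin (95% exact binomial interval 0.0152 to 0.0220%, for counting error only). In single libraries the 3p arm outnumbered the 5p arm by 2377 to 24859. Of 278 hairpin names with both arms in the tables, 103 had a mean of at least 1 read in each arm, and among them miR-22 was the most unequal. The median over the 103 names was 12.1 reads of the larger arm per read of the smaller. The next names were miR-410, with 2080, and miR-191, with 1683 in favour of its 5p arm. By signed mean log2 ratio of 3p to 5p, miR-22 stood first at 12.31, followed directly by miR-410 at 9.74.

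The rank of miR-22 holds only for hairpins whose minor arm can be measured. Names below the filter included miR-143, with 94443 reads of its 3p arm and 2 of its 5p arm, and miR-541, with 95062 of its 5p arm and 11 of its 3p arm. miR-378a had 33223 reads of 3p and 6 of 5p, and miR-146b 21238 of 5p and 2 of 3p. Several abundant miRNAs, among them miR-181a-5p and let-7f-5p, were listed under the name of a single arm and gave no ratio.

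**Figure D4:**
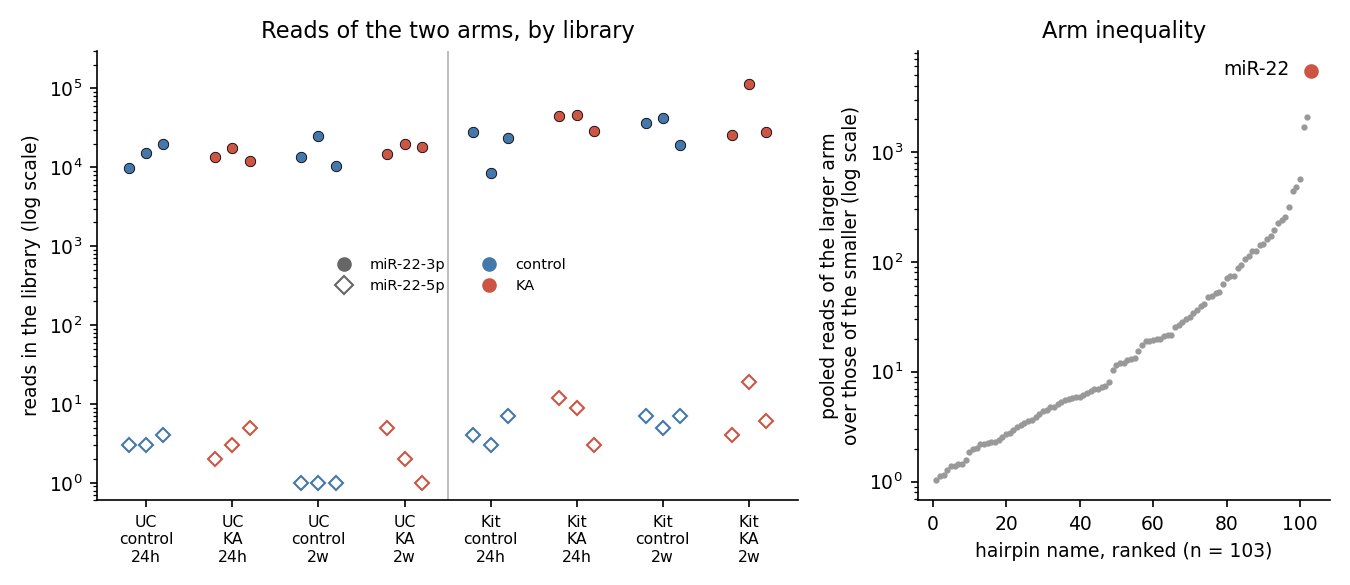
Left, reads of miR-22-3p (filled circles) and miR-22-5p (open diamonds) in each library on a log axis, by group, with controls in blue and KA in red. Right, pooled reads of the larger arm over the smaller for 103 hairpin names in rank order, on a log axis. miR-22-5p has 1 to 19 reads where miR-22-3p has 8558 to 115031, and miR-22 is the last point on the right, at 5434.

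The arm ratio was compared over the 24 libraries with limma, on log2 of 3p over 5p reads with 0.5 added to each, adjusted over the 103 names. Between methods, the mean was 12.4 ± 0.892 (SD, n = 12) with UC and 12.2 ± 0.580 with the kit, a difference of -0.26 ± 0.30 (SE, adjusted p = 0.427, limma), while 69 of 103 names (67.0%) passed in that comparison. Between KA and control the difference was 0.03 ± 0.30 (adjusted p = 0.994, limma), and 0 of 103 names (0.0%) passed by limma, where 6 (5.83%) had an unadjusted p-value under 0.05. Between 2 weeks and 24 h the difference was 0.62 ± 0.30 (unadjusted p = 0.0493, adjusted p = 0.430, limma), and 1 name (0.971%) passed. This last difference was 1.07 within the UC libraries (adjusted p = 0.370) and 0.17 within the kit libraries. In the UC control groups, the log2 ratios were 11.5, 12.1 and 12.1 at 24 h and 13.1, 14.0 and 12.8 at 2 weeks, where each 2-week library held a single 5p read.

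Few miR-22-3p reads were listed as altered. The modification tables list, for each read class, bases that differ from the reference at the 3′ end, at the 5′ end or inside the read, so that reads which are only shorter than the reference carry no entry and are counted as unaltered here. Reads that are longer by bases of the hairpin may be counted in the same way, as described below. Of the 635799 reads, 6898 (1.08%) carried any such entry, the lowest share of the 111 miRNAs with at least 20 reads in every library. The median of these miRNAs was 12.0%, with quartiles of 6.74 and 22.8%. The next lowest were miR-191-5p (1.20%), miR-434-3p (1.37%) and miR-136-3p (1.37%). miR-22-3p had the lowest share in 10 of 24 libraries, and its rank from below was between 1 and 7.

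The low share was found at the 3′ end. There, 0.560% of miR-22-3p reads carried an entry, the lowest of the 111 miRNAs, whose median was 10.9%. At the 5′ end 0.431% carried one, which ranked 72 of 111 from below, with a median of 0.353%. A further 0.0937% had an internal change alone, a class that may hold mostly A-to-G entries, as described below. The most frequent 3′ entries were a single G (925 reads), a single C (764) and a single A (750), and a single U was listed for 18 reads. Adapter-like letters, GAAUU, were at the 3′ end of 355 reads, or 5.15% of those altered. At the 5′ end the most frequent entry was a C listed at position -1 (604 reads). Which base a listed position counts from is not given in the sources used here, but the 3′ entries place position 0 at the last reference base. After their first letter, UU at -1 (98 reads), CGU at -2 (69) and AUGU at -3 (180) match the reference up to its last base. Most single-base 3′ entries thus stood in place of the last U (G 923, C 762 and A 454 reads at position 0). A at position 1 (291 reads) stood after it.

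The scarcity of single U entries cannot be read as a lack of uridylation, the addition of U by terminal transferases. The hairpin base that follows miR-22-3p is itself a U, as the sequence above shows, so an added U and a longer cut give the same read. At listed position 0 a U is the reference base, so no U entry can arise there. How reads with a templated extra base were listed is not given in the sources used here. Of the 111 miRNAs, 76 could be placed on a single hairpin. The median altered share was 9.95% over the 23 of these miRNAs whose next base is U and 11.9% over the other 53, so that miR-22-3p was also low among miRNAs of its kind.

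Altered shares of miR-22-3p varied little between libraries, from 0.897% (Kit KA 24h replicate 2) to 1.58% (UC control 2w replicate 1). The mean was 1.17% ± 0.154 (SD, n = 12) with UC and 1.07% ± 0.0773 (SD, n = 12) with the kit. By limma on log2 odds of altered reads, adjusted over the 111 miRNAs, the kit minus UC difference was -0.12 ± 0.08 (SE, adjusted p = 0.257), where 36 of 111 miRNAs (32.4%) passed. KA differed from control by -0.07 ± 0.08 (adjusted p = 0.940, limma), and 0 of 111 (0.0%) passed by limma, where 5 (4.5%) had an unadjusted p-value under 0.05. The 2-week libraries differed from the 24 h libraries by 0.12 ± 0.08 (adjusted p = 0.743, limma), and 1 miRNA (0.901%) passed. The reads of all other miRNAs carried an entry in 14.6% ± 1.66 (SD, n = 12) of cases with UC and in 12.7% ± 0.869 (SD, n = 12) with the kit, a difference in the same direction.

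Seen by end, a method difference of miR-22-3p passed adjustment at the 5′ end and not at the 3′ end, in comparisons that were added after the values had been seen. 5′ entries were present in 0.536% ± 0.0812 (SD, n = 12) of its reads with UC and in 0.397% ± 0.0415 (SD, n = 12) with the kit. Of the UC libraries, 10 of 12 lay above every kit library, and 11 of 12 kit libraries lay below every UC library. The difference in log2 odds was -0.43 ± 0.15 (SE, adjusted p = 0.0351, limma), with an interval of -0.74 to -0.12, and 34 of 111 miRNAs (30.6%) passed in this comparison. With 1 library left out, the adjusted p ranged from 0.0304 to 0.0564 and was over 0.05 for 9 of the 24. These 9 were UC control 2w replicates 1 and 3, UC KA 24h replicate 3, Kit control 24h replicates 1 and 3, Kit KA 24h replicates 2 and 3, Kit control 2w replicate 3 and Kit KA 2w replicate 2. 3′ entries were at 0.563% ± 0.0908 with UC and 0.572% ± 0.0629 with the kit, a difference of 0.03 ± 0.09 (SE, adjusted p = 0.832, limma), where 42 of 111 miRNAs (37.8%) passed. Reads with an internal change alone went the other way from the 5′ end. They were at 0.0681% ± 0.0181 (SD, n = 12) with UC and 0.104% ± 0.0181 (SD, n = 12) with the kit, a difference that was not tested. The A-to-G entries inside the read, given below, are about as many as the reads of this class, and they were not split by method.

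**Figure D5:**
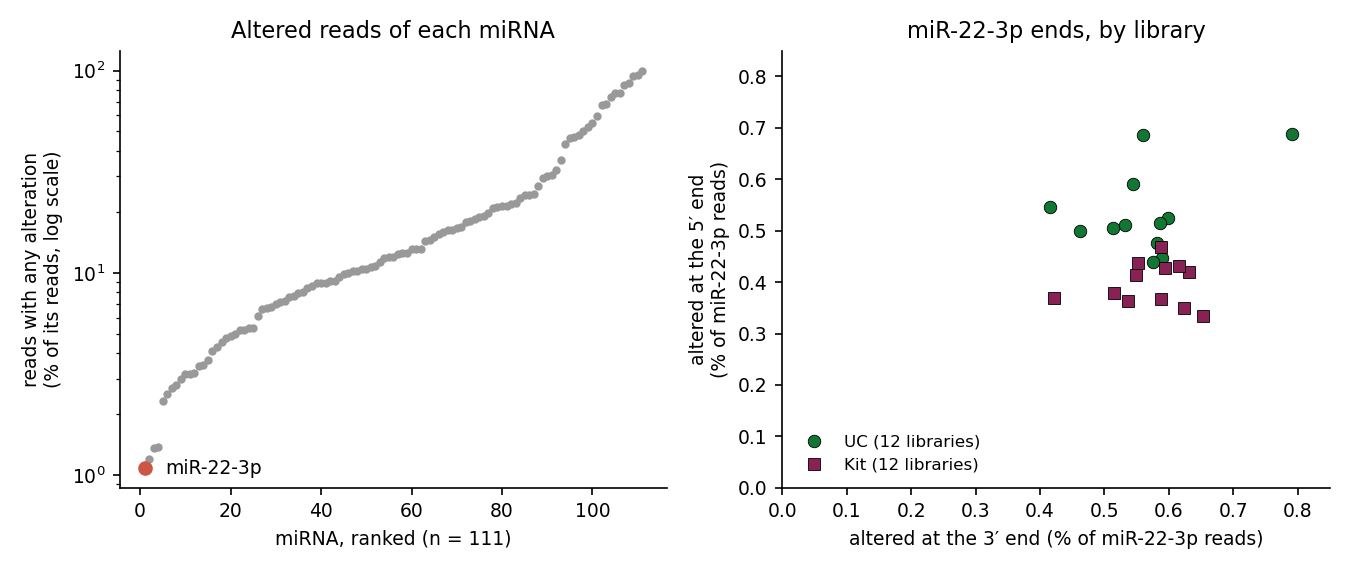
Left, reads with any alteration as a percentage of the reads of each of 111 miRNAs, ranked, on a log axis, with miR-22-3p in red. Right, miR-22-3p reads altered at the 3′ end against those altered at the 5′ end, as percentages, in 12 UC (green circles) and 12 kit libraries (purple squares). miR-22-3p is the first point on the left at 1.08%, and on the right the methods mostly separate along the 5′ axis (means 0.536 and 0.397%) but not along the 3′ axis (0.563 and 0.572%).

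Single-base 3′ entries were compared by exact permutation within the strata of the other factors, two-sided, over 6 comparisons. Of the 750 single A entries, 454 stood in place of the last U and 291 after it, so they mix replaced and added bases. A U in place of the last base is the reference itself, so single U entries do not measure added U. For a single A, the differences between kit and UC, KA and control and 2 weeks and 24 h were 0.0149, 0.00834 and 0.00384 percentage points (exact permutation p = 0.363, 0.601 and 0.806). For a single U they were 0.000745, -0.00270 and 0.000547 percentage points (exact permutation p = 0.657, 0.113 and 0.730). All adjusted p-values of these exact permutation tests were 0.675 or higher, and none of the 6 comparisons passed.

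A-to-G changes, the mark that adenosine deamination by ADAR enzymes leaves in sequencing reads, were rare at each of the 7 adenosines of miR-22-3p. With positions counted from 1 at the 5′ end, and listed position 0 of the 5′ end taken as the first base, A2G, inside the seed, was the most frequent at 0.0433% of reads (275 reads), and A15G followed at 0.0299% (190 reads). The others were A1G at 0.0212%, A14G at 0.0197%, A9G at 0.0176%, A17G at 0.0162% and A18G at 0.0115%. In single libraries no site exceeded 0.0678%. All sites lay below the sequencing error rate that the study allowed for when it called edited sites, so these entries cannot be told apart from miscalls. A1G and A2G are entries of the 5′ end and are part of its 0.431%. At listed position 0 of that end, a single C was more frequent (377 reads) than the single G counted as A1G (135 reads), and a single U was listed for 55 reads, so that G was not the leading entry there. Inside the read, A-to-G changes alone were counted by position, and no other kind of change was set beside them.

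Of the 117 reads of miR-22-5p, 16 carried an entry, spread over 9 libraries. By exact permutation tests, two-sided, the log2 odds of an altered read differed by -0.24 between kit and UC (exact permutation p = 0.723), by -0.17 between KA and control (exact permutation p = 0.805) and by -0.03 between 2 weeks and 24 h (exact permutation p = 0.962). With 1 to 19 reads per library, these shares are imprecise.

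miR-22-3p belongs with miR-150-5p and miR-186-5p to the miRNAs listed here as targeting the P2X7 receptor. miR-186-5p had 15375 reads and miR-150-5p 13, and the latter passed the abundance filter with the kit only. None of the 3 passed adjustment in a comparison of KA and control (edgeR). At 24 h with the kit, where miR-22-3p had a log2 fold change of 0.66, that of miR-186-5p was 0.07 ± 0.31 (SE, adjusted p = 0.975, edgeR) and that of miR-150-5p 3.73 ± 1.88 (adjusted p = 0.838).

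The miRNAs whose levels moved most like those of miR-22-3p over the 24 libraries, after the mean of each method had been subtracted from log2 CPM, were miR-136-3p (Pearson's r = 0.842), miR-666-3p (0.776) and miR-221-3p (0.705), of 242 miRNAs compared. These coefficients were 0.771, 0.838 and 0.715 within UC and 0.869, 0.751 and 0.711 within the kit libraries. For miR-22-5p the highest were miR-338-5p (0.530), miR-384-3p (0.530) and miR-19b-3p (0.469). Between both arms of miR-22 the coefficient was 0.0593, and with so few 5p reads nothing is read from it. All points of these coefficients share library and depth, and they are given as a description.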

How the data were processed

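Small RNA libraries (TruSeq, MiSeq) of RNase A-treated EEFs from 24 samples were analysed. The authors trimmed adapters and mapped reads to miRBase 21 hairpins with Chimira, and deposited read counts per mature miRNA and counts per modification pattern, without normalization. The Chimira version is not given in the sources used here. Totals of both tables were equal for each of the 11992 entries of a miRNA in a library. The modification tables listed 11791 reads in a doubled entry, which was left out.

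Abundance was tested with edgeR 4.0.16 in R 4.3.3 (TMM, glmQLFit, glmQLFTest, 4 groups of a method in a fit, CPM over 1 in at least 6 libraries, no replicate block). Kit and UC were compared over all 24 libraries with treatment and time as covariates. Arm ratios and altered shares were fitted with limma 3.58.1 on log2 ratios (0.5 added to both counts), with method, treatment and time as terms. Altered shares needed at least 20 reads in every library. The planned minimum of 10 mean reads per arm would have left out miR-22, and a mean of 1 read was used instead, chosen after seeing the data. P-values were Benjamini-Hochberg adjusted over all features of a fit. Degrees of freedom for the 95% intervals were those implied by the p-values. Single values were tested by exact permutation, and tests were first run on simulated data. Python 3.11.15, pandas 2.3.3 and scipy 1.17.1 were used, with DESeq2 1.42.0 and limma-voom among the alternatives.

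Samples were grouped by their labels. Same-numbered KA and control libraries deviated together at 2 weeks (correlations 0.111 to 0.214 with UC, 0.192 to 0.310 with the kit) whereas at 24 h 1 of 6 pairs was over 0.1 (-0.246 to 0.112), and their only link is the number in the labels. No library pair of a group looked like a repeat of the same library (chi-square per degree of freedom 5.12 to 156 in 24 pairs). Of the 1073 names, 910 matched the RefSeq table. Totals of 85436 to 676726 make 1 read worth 1.48 to 11.7 CPM. Named miRNAs were both arms, the comparators miR-127-3p and miR-181a-5p, the reference pair miR-25-3p and miR-92b-3p, seed-sharing miRNAs, the P2X7 list, the 3 most alike miRNAs per arm and the hairpins next to miR-22 by arm ratio. Other miRNAs named for arm ratio or altered share were chosen after their values were seen. Members and lists were chosen with earlier results of these data known.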

Additional observations from a re-analysis of the deposited data

How the results depend on the processing

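Over 33 results, 202 of 226 recomputed values kept direction and call. For miR-22-3p, kit minus UC became a call with miR-92b-3p and miR-25-3p as the scaling reference (-0.715), with library totals without the top 3 miRNAs (-0.648) and with at least 10 counts in 6 libraries (-0.323), against -0.24, and with 1 library left out it lay between -0.369 and -0.175, with the 5 calls named above. Tested alone by exact permutation, without adjustment over other miRNAs, the arm ratio differed between 2 weeks and 24 h (0.618, exact permutation p = 0.0457), as did the altered share of miR-22-3p (0.122, exact permutation p = 0.0351), which also differed between kit and UC (-0.117, exact permutation p = 0.043). Entries of the 5′ end alone gave -0.431 for kit minus UC and those of the 3′ end alone 0.0282, a turn in direction, both added after seeing the data.

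Values that turned direction were not past a test in either setting. For miR-22-3p these were UC KA minus control at 24 h (-0.0365 with totals without the top 3), UC 2 weeks minus 24 h (0.0131 with no filter) and the kit interaction (0.0679 with the reference pair). For miR-22-5p these were kit minus UC (-0.31 with the reference pair, -0.282 without the top 3), and, with the reference pair, kit KA minus control at 24 h (-0.155), kit 2 weeks minus 24 h (-0.0407) and the kit interaction (0.194). The arm ratio of KA minus control was -0.308 in UC libraries and -0.00988 in unaltered reads. The altered share of miR-22-5p turned for KA minus control with the kit (0.317) and for time with a pseudocount of 1 (0.0454). Single U entries turned for time with UC (-0.000193 percentage points), and single A entries with the kit for treatment (-0.00736) and time (-0.00702), and for time as a share of altered reads (-0.477).

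With 1 library left out, ranges that crossed zero were, for miR-22-3p with UC, -0.102 to 0.272 (KA at 24 h), -0.26 to 0.147 (KA at 2 weeks), -0.165 to 0.0506 (time) and -0.385 to 0.127 (interaction). For miR-22-5p they were -0.433 to 0.417 (UC, KA at 24 h), -0.059 to 0.253 (kit minus UC), -0.0346 to 0.573 and -0.188 to 0.372 (kit, KA at 24 h and 2 weeks) and -0.482 to 0.188 (kit interaction). The arm ratio of KA minus control ranged from -0.0853 to 0.166, and the altered share of miR-22-5p from -0.64 to 0.124 (method), -0.464 to 0.236 (treatment) and -0.435 to 0.329 (time). Single A entries over time ranged from -0.00327 to 0.0116 and single U entries from -0.000307 to 0.00119 (time) and -0.000109 to 0.00132 (method) percentage points. Apart from kit minus UC of miR-22-3p, no removal made a call in these 33 results.

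KA and control libraries share replicate numbers, and 7 of 12 same-numbered pairs correlated over 0.1, among them all pairs at 2 weeks, while 8 of 12 controls were closest to the KA library of their own number. With the replicate block, miR-22-3p with the kit at 24 h was at 0.644 (adjusted p = 0.698, edgeR), no miR-22 call changed, and with UC the miRNAs past adjustment went from 2 to 4 (KA at 24 h) and from 2 to 7 (time). Over the settings that keep all libraries these UC counts ran from 1 to 4 (KA at 24 h), 0 to 6 (KA at 2 weeks, against 4), 1 to 7 (time) and 0 to 3 (interaction, against 2). Those of the kit ran from 0 to 2, and kit minus UC from 163 to 308 against 263. With 1 library left out, the UC counts ran from 2 to 3 (KA at 24 h), 0 to 5 (KA at 2 weeks, 0 without UC control 2w replicate 3 or UC KA 2w replicate 3), 1 to 6 (time, 6 without UC control 2w or UC KA 2w replicate 1) and 0 to 5 (interaction, 5 without UC KA 2w replicate 1), those of the kit from 0 to 2 (2 without Kit KA 2w replicate 1) and kit minus UC from 256 to 270. A minimum of 50 reads gave no value for the arm ratio, and the block could not be fitted for method in the permutation tests. Depth limits miR-22-5p throughout, since 11 of 24 libraries held 3 reads or fewer.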
